A study of Mus musculus with 3 samples.

Results

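The 10 genes Lpl, Cst7, Gpnmb, Spp1, Igf1, Lgals3, Fabp5, Cd9, Cd63 and Timp2 are used as markers of disease-associated microglia, and they were picked by symbol from 24411 tabulated genes, among which all 10 were found. Their expression was measured by RNA sequencing in 3 libraries of microglia, replicates 1 to 3 of a single group. The genotype was Mir137loxP/loxP;Tmem119-CreERT2, abbreviated cKO, on a C57BL/6J background, and the treatment was given as a Pu.1 inhibitor. Mice were labelled as 6 to 8 weeks old, while the design placed 7 days of tamoxifen at 7 to 8 weeks. The recombinase was a tamoxifen-inducible CreERT2 driven by Tmem119, a microglial gene, and recombination was not measured in these files. Primary microglia of adult mice were isolated for sequencing and 4 animals are mentioned, without saying whether they were pooled. The labels give the tissue as brain, and neither the dose of the inhibitor nor whether mice or cells received it. No other group was analysed here: every library was labelled with the cKO genotype and the inhibitor, and levels are described without an effect of either. The labels do not tie a library to an animal, so any p-value measures the spread between these libraries alone, which may be technical.

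Disease-associated microglia are a state that microglia take on around amyloid plaques, dying neurons and damaged myelin. Entry into that state lowers homeostatic genes such as P2ry12 and Tmem119 and, in part through the receptor Trem2, raises genes of lipid uptake, lysosomes and secreted factors. Several of the same genes are also high in microglia of developing white matter, and none of them is made by microglia alone.

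All 10 marker genes were detected, and they fell into a high group of 3 and a lower group of 7. Detection was set at an FPKM (fragments scaled to transcript length and library size) of at least 1 in every library, which 47.8% of all tabulated genes reached. Cd9, Cd63 and Timp2 had means above 100 FPKM, a level reached by 3.12% of all genes and 6.52% of detected genes. Lgals3, Spp1 and Fabp5 lay between 10 and 100 FPKM, so 6 of 10 genes reached 10 FPKM, against 28% of all genes and 58.6% of detected genes. Cst7, Lpl, Gpnmb and Igf1 were below 10 FPKM. Cd9 exceeded Igf1 by 289 ± 28.2 times in FPKM within a library (SD, n = 3). The median over the 10 genes of log2(FPKM + 1) was 3.86 ± 0.18 (SD, n = 3), beside 3.82 for the 11680 detected genes and 0.95 for all genes.

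**Figure D1:**
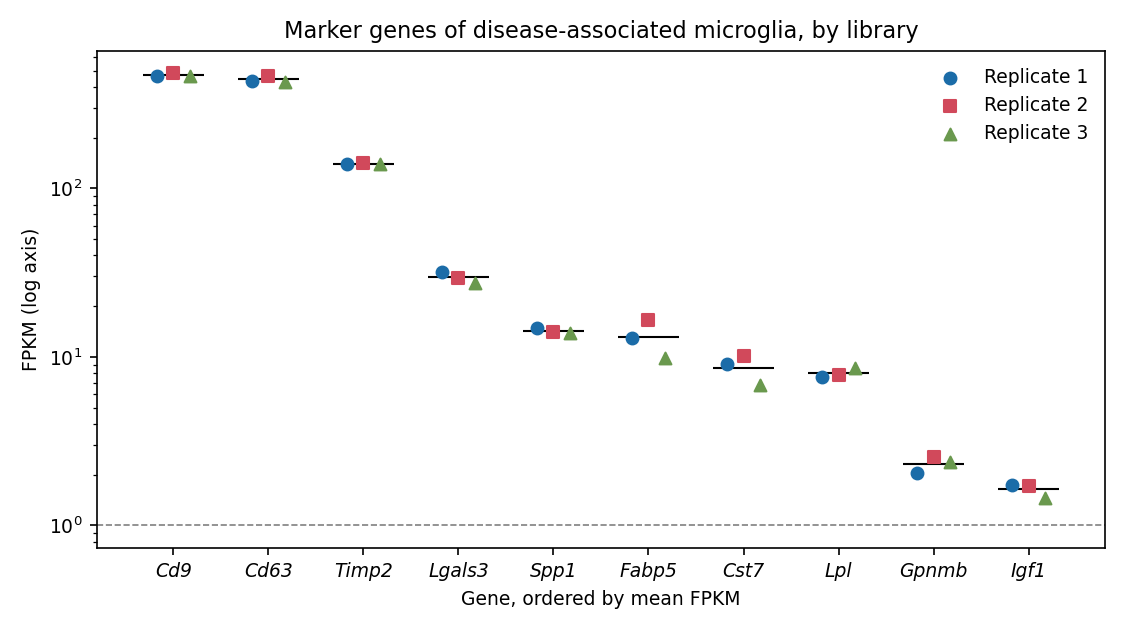
FPKM of each marker gene on a log axis in replicates 1, 2 and 3, with genes ordered by mean, black bars at the mean of the 3 libraries and a dashed line at an FPKM of 1. Cd9, Cd63 and Timp2 lie above 100 FPKM and Igf1, at 1.46 to 1.74 FPKM, lies nearest the dashed line.

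The 2 tetraspanins were the most abundant of the 10. Tetraspanins are membrane-spanning proteins that gather integrins and other receptors into clusters. Cd9, found at the cell surface (GRCm38 chromosome 6, 125460266 to 125494791, minus strand), had 462, 482 and 467 FPKM in replicates 1, 2 and 3, a mean of 470.5 ± 10.1 (SD, n = 3). Cd63, found in late endosomes, lysosomes and secreted vesicles (chromosome 10, 128900989 to 128912822, plus strand), had 434, 467 and 428 FPKM, a mean of 443 ± 20.9 (SD, n = 3). Both genes were highest in replicate 2, and their ranges over the libraries overlapped. Within each library Cd9 was the higher, by 1.06 ± 0.03 times (SD, n = 3). Cd9 stood at rank 150 and Cd63 at rank 163 of all genes by mean FPKM.

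Their relatives were widely expressed. Of 24 other tetraspanins and tetraspanin partners, all but Tspan1 were detected. Cd81, a partner of Cd9 in the same membrane complexes, was the only one above it, at 829.9 ± 25.7 FPKM and 1.76 ± 0.02 times Cd9. The leukocyte tetraspanins Cd53 and Cd37 had 413 ± 15.5 and 180.2 ± 16.8 FPKM. Ptgfrn and Igsf8, immunoglobulin-type proteins that bind Cd9 and Cd81, were far lower, at 11.8 ± 0.38 and 18.6 ± 2.15 FPKM. Exons of Cd9 overlap those of Gm26728 on the opposite strand, and because strand was not stated, reads from the 2 cannot be told apart.

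Timp2, a secreted inhibitor of matrix metalloproteinases (chromosome 11, 118301069 to 118355740, minus strand), varied least of the 10 in FPKM, though not in TPM (FPKM rescaled to equal sums), where its coefficient of variation was 2.33% and that of Cd9 1.57%. Its FPKM was 139, 141 and 139.8 in replicates 1, 2 and 3, a mean of 140.0 ± 1.34 (SD, n = 3). The highest library exceeded the lowest by 1.02 times. Timp2 together with the membrane protease Mmp14 can also take part in activating Mmp2. Mmp14 was at 14.0 ± 1.61 and Mmp2 at 8.78 ± 0.33 FPKM, so Timp2 exceeded Mmp14 by 10.1 ± 1.10 times and Mmp2 by 16.0 ± 0.65 times (SD, n = 3). Of the other inhibitors, Timp3, which is held in the matrix, had 94.0, 89.5 and 109 FPKM, Timp4 a mean of 4.23 ± 0.91 and Timp1 a mean of 0.71 ± 0.38 FPKM. Mmp12, the macrophage elastase, was at 1.21 ± 0.44 FPKM, and the neutrophil proteases Mmp8 and Mmp9 were at 65.2 ± 1.39 and 40.8 ± 2.53 FPKM.

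Cst7 encodes cystatin F, an inhibitor of lysosomal cysteine proteases whose targets include cathepsins C and L (chromosome 2, 150570415 to 150578944, plus strand). It had 9.07, 10.1 and 6.76 FPKM in replicates 1, 2 and 3, from counts of 110, 111 and 78. Replicate 3 was the lowest. Its count had an exact 95% Poisson interval of 61.7 to 97.3, which overlapped those of replicate 1 (90.4 to 133) and replicate 2 (91.3 to 134). Such intervals cover counting error only and are on counts not scaled to library size, and their overlap is no test of a difference. The mean of Cst7 was 8.63 ± 1.69 FPKM (SD, n = 3), whereas the secreted cystatin Cst3 exceeded it by 1920 ± 289 times and the cytosolic cystatin Cstb by 8.67 ± 0.99 times. Its target Ctsc, cathepsin C, was 20.8 ± 4.73 times as high, at 174 ± 2.69 FPKM. Ctsl was at 386 ± 13.7 FPKM, and 5 further cystatins had no count in any library.

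Cst7 is also made by natural killer cells and cytotoxic T cells. Of 10 genes of those cells 6 were detected and none had 0 counts in all libraries. Their summed FPKM was 56.1, 59.8 and 42.4 in replicates 1, 2 and 3. It was lowest in replicate 3, as were Cst7 and the summed FPKM of all genes. Ccl5, the highest of them, made up much of that sum, with 29.7, 24.9 and 20.7 FPKM. Gzma, Prf1, Il2rb and Ctsw were lowest in replicate 1 and the others in replicate 3. Gzma had 7.60, 13.6 and 9.41 FPKM and Klrd1 7.45, 7.53 and 3.45 FPKM. The part of such cells in the Cst7 level was not tested. Bulk libraries cannot tell fewer cells of a type from less RNA per cell, and this holds for every gene described here.

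Lpl and Fabp5 act in lipid handling. Lpl encodes lipoprotein lipase, which releases fatty acids from lipoprotein triglycerides (chromosome 8, 68880491 to 68907448, plus strand). It had 7.60, 7.81 and 8.57 FPKM in replicates 1, 2 and 3, a mean of 7.99 ± 0.51 (SD, n = 3). Replicate 3 was the highest, from counts of 492, 462 and 528. Fabp5 encodes a cytosolic fatty acid carrier (chromosome 3, 10012548 to 10016607, plus strand). It had 12.98, 16.62 and 9.82 FPKM, from counts of 150, 175 and 108, a mean of 13.1 ± 3.40 FPKM (SD, n = 3). Replicate 2 was the highest and replicate 3 the lowest, 1.69 times apart, the widest ratio among the 10 genes.

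Among 23 genes of lipase maturation, lipoprotein uptake and lipid storage, 18 were detected. Lmf1, which folds the lipase, was at 16.7 ± 0.05 FPKM, and Angptl4, which inhibits it, at 14.1 ± 0.95 FPKM. Both levels were above that of Lpl. Apoc2, its activating apolipoprotein, was at 1.91 ± 0.80 FPKM, from only 17, 12 and 9 counts. Gpihbp1, which anchors the lipase to capillary walls, had 0 counts in every library, a limit, set at 3 counts, of 0.175, 0.191 and 0.183 CPM (counts relative to library size) in replicates 1, 2 and 3. The lipoprotein receptor Lrp1 exceeded Lpl by 13.5 ± 0.76 times, at 107 ± 0.95 FPKM, while the receptor Vldlr was at 3.23 ± 0.06 and the fatty acid transporter Cd36 at 6.85 ± 1.54 FPKM. Lysosomal acid lipase, Lipa, was at 70.9 ± 0.21 FPKM and the lipid droplet coat gene Plin2 at 29.1 ± 2.10 FPKM.

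Fabp5 was the highest of the fatty acid binding proteins. Fabp7, the brain form abundant in astrocytes, was at 11.4 ± 1.66 FPKM, Fabp3 at 6.32 ± 1.47 and Fabp4, the adipocyte and macrophage form, at 1.04 ± 0.76 FPKM. Fabp4 rested on 1, 8 and 9 counts and was not detected. Fabp5 exceeded Fabp7 by 1.14 ± 0.18 times and Fabp3 by 2.08 ± 0.28 times, each in 3 of 3 libraries. Their ranges over the libraries overlapped for Fabp7 and did not for Fabp3. Of the 12 relatives 7 had no count. Fabp5 is also expressed by brain endothelium, whose 12 marker genes summed to 2606, 2795 and 2643 FPKM in replicates 1, 2 and 3, with none at 0 counts. The part of such cells in the Fabp5 level was not tested.

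Spp1 and Igf1 encode secreted factors. Spp1 encodes osteopontin, a ligand of integrins and of Cd44 (chromosome 5, 104435118 to 104441050, plus strand). It had 14.8, 14.0 and 13.8 FPKM in replicates 1, 2 and 3, a mean of 14.2 ± 0.50 (SD, n = 3), with replicate 1 the highest. Of 10 receptor subunits 8 were detected. Itgb5 was at 526 ± 5.81 FPKM, 37.1 ± 0.90 times the level of its ligand, and Itgb1 at 176 ± 2.34 FPKM. Itgav, which pairs with both, was at 24.0 ± 1.05 FPKM, Cd44 at 19.9 ± 0.83 and Itgb3 at 15.1 ± 0.65 FPKM. Exons of Spp1 overlap those of Gm42793 on the same strand, which was not analysed here. Of 4 relatives of osteopontin from bone and tooth, only Dmp1 had counts, at 0.46 ± 0.18 FPKM.

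Igf1, a growth factor that supports oligodendrocytes and neurons (chromosome 10, 87858265 to 87937042, plus strand), was the lowest of the 10. It had 1.74, 1.72 and 1.46 FPKM in replicates 1, 2 and 3, a mean of 1.64 ± 0.16 (SD, n = 3). Replicate 3 was the lowest, from counts of 203, 184 and 162. The receptor Igf1r was 8.81 ± 1.30 times as high, at 14.3 ± 0.71 FPKM, and Insr was at 11.6 ± 1.37 FPKM. Igf2, which the choroid plexus and meninges make, was at 29.98 ± 2.33 FPKM. Of its binding proteins, Igfbp7 was at 213 ± 9.85 FPKM, Igfbp3 at 111 ± 9.01 and Igfbp2 at 57.1 ± 2.83 FPKM, while Igfbp1 was at 0.36 ± 0.04 FPKM. Igfbp7 and Igfbp3 are abundant in vessels.

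Igf1 was also the only one of the 10 with a match to the seed of miR-137, the microRNA targeted by the genotype. The search covered 7-base seed matches in the longest annotated 3′ untranslated region of each gene. The sequences are shown because the gene targeted by the genotype encodes this miRNA. MicroRNAs pair through bases 2 to 8, their seed, with messages that hold the reverse complement, here AGCAATA. The seed of the mature miRNA (RefSeq, GRCm38.p6, chr3:118433901-118433923, plus strand) and each match within the Igf1 3′ untranslated region are in capitals below, 5′ to 3′, with 11 flanking bases on each side.
miR-137-3p: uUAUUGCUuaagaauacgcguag
Igf1 chr10:87931285-87931291: gcctccttaagAGCAATAgcaaataagta
Igf1 chr10:87936880-87936886: atttatggcagAGCAATAtctgtcctaat
The matches begin at bases 551 and 6146 of a 6308-base untranslated region, the longest annotated for the gene. The coordinates are those of the 7 matching bases on the plus strand of GRCm38. Neither match is followed by an A, the base that extends a match of 7 to the strongest class. Among 11026 detected genes with such a region 10.2% held a match, and among the 1775 with regions over 3000 bases 26.6% did. A match is a description of sequence and was not tied to a change in level, since no library with intact Mir137 was analysed here. Mir137 itself had 0 counts in every library, which is no check of the deletion.

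Lgals3 and Gpnmb complete the set. Lgals3 encodes galectin-3, a lectin that binds galactosides and gathers at damaged lysosomes (chromosome 14, 47367751 to 47386160, plus strand). It had 31.9, 29.5 and 27.3 FPKM in replicates 1, 2 and 3, a mean of 29.6 ± 2.31 (SD, n = 3), with replicate 1 the highest. Among the other galectins 3 were higher and 5 lower. Lgals9 at 223 ± 11.8 FPKM was 7.55 ± 0.50 times Lgals3, Lgals8 at 46.1 ± 2.11 was 1.57 ± 0.15 times and Lgals1 was at 46.8 ± 6.83 FPKM. Lgals4 was at 1.35 ± 0.45 FPKM, Lgals6 and Lgals12 were lower still, and Lgals2 and Lgals7 had no count. Binding partners of galectin-3 were also above it, with Lgals3bp at 193 ± 5.76 and Mertk, a receptor for dying cells, at 167 ± 2.15 FPKM.

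Gpnmb encodes a transmembrane glycoprotein of lysosomes and pigment granules (chromosome 6, 49036546 to 49070929, plus strand). It had 2.04, 2.53 and 2.36 FPKM in replicates 1, 2 and 3, a mean of 2.31 ± 0.25 (SD, n = 3), with replicate 1 the lowest. Its counts were 123, 140 and 136. Pmel, its closest relative and a pigment cell gene, was not detected, at 0.32 ± 0.36 FPKM from 1, 6 and 22 counts. Adam10, a protease that sheds the GPNMB ectodomain from human cells, was at 139 ± 4.57 FPKM. Mitf, a transcription factor known to drive Gpnmb, was at 8.94 ± 0.79 FPKM, and its relatives Tfe3, Tfeb and Tfec were at 39.0 ± 1.66, 17.4 ± 1.47 and 2.73 ± 0.55 FPKM.

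**Figure D2:**
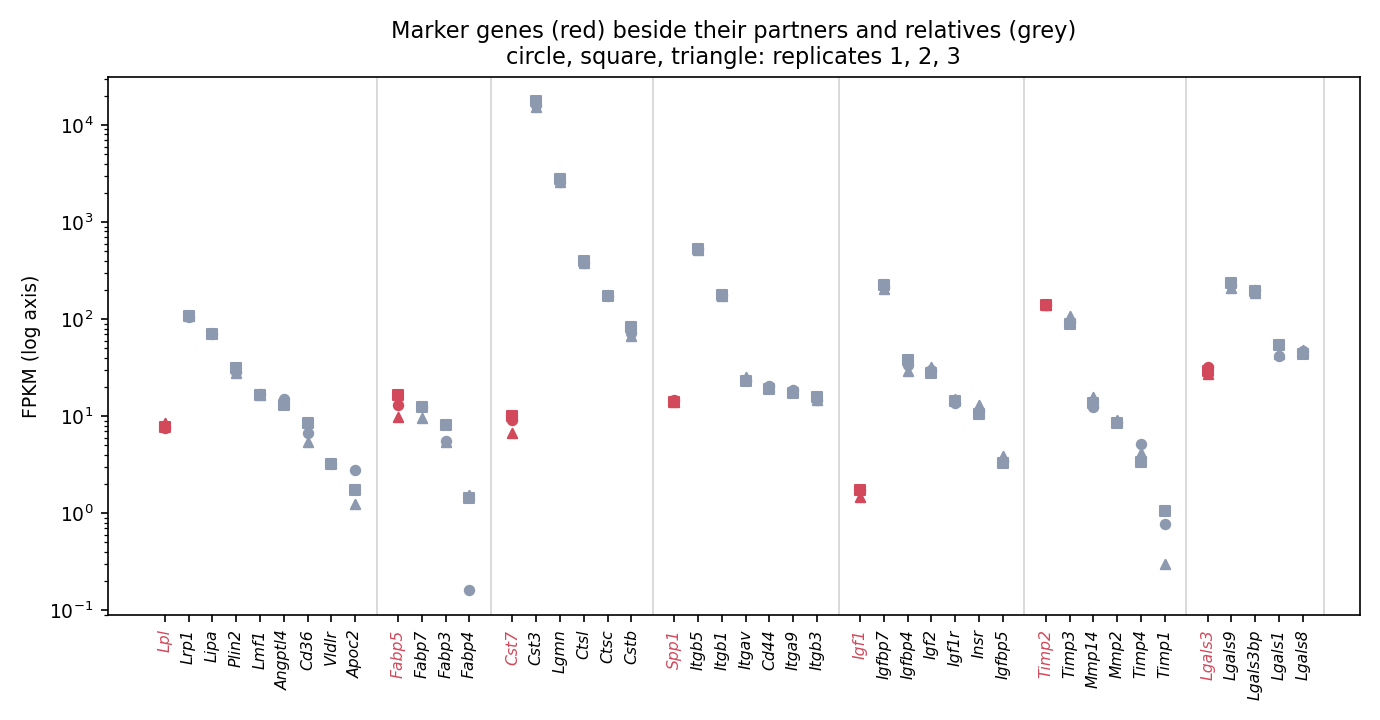
FPKM on a log axis of 7 marker genes (red) and of selected partners and relatives of each (grey), with a circle, square and triangle for replicates 1, 2 and 3. Igf1 and Cst7 lie below every partner drawn beside them, whereas the means of Timp2 (140.0 FPKM) and Fabp5 lie above those of theirs.

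Of the 9 pairs of neighbours in the order by mean FPKM, 4 had overlapping ranges over the libraries. These were Cd9 and Cd63, Spp1 and Fabp5, Fabp5 and Cst7, and Cst7 and Lpl. Fabp5 was above Cst7 in 3 of 3 libraries, by 1.51 ± 0.12 times, but Spp1 was above Fabp5 and Cst7 above Lpl in 2 of 3 libraries each. The remaining steps were larger than the spread. Cd63 exceeded Timp2 by 3.16 ± 0.12 times, Timp2 exceeded Lgals3 by 4.75 ± 0.39, Lgals3 exceeded Spp1 by 2.08 ± 0.10, Lpl exceeded Gpnmb by 3.48 ± 0.34 and Gpnmb exceeded Igf1 by 1.42 ± 0.23 times (SD, n = 3).

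The order depended on dividing by length. Effective lengths, recovered from counts and FPKM, ran from 618 nt for Cd63 to 6795 nt for Igf1. In TMM-normalised CPM, which is not divided by length, Timp2 was the highest of the 10 at 468 ± 4.75 and Cst7 the lowest at 6.08 ± 1.19, while Igf1 was at 11.1 ± 1.09 CPM (SD, n = 3). Of the 45 pairs of genes, 36 kept their order in CPM. In counts, Cd9, Cd63 and Timp2 took 91.2 ± 0.29% of all reads of the 10 genes, and the 10 together took 0.128 ± 0.0027% of the library (SD, n = 3).

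Set beside homeostatic genes in the same libraries, the marker genes divided in the same way. The 15 homeostatic genes, all detected, ran from Slc2a5, a fructose transporter, at 93.4 ± 0.10 FPKM to Cst3. Cd9 was above 6 of them, Cd63 above 5 and Timp2 above 2, and the other 7 marker genes were above none. Cd9 exceeded Tmem119 by 2.83 ± 0.17 times, whereas Igf1 stood at 0.98 ± 0.04% and Lpl at 4.81 ± 0.62% of Tmem119. Relative to the purinergic receptor P2ry12, Cd9 was at 29.3 ± 0.49%, Lgals3 at 1.84 ± 0.14%, Spp1 at 0.88 ± 0.03% and Igf1 at 0.10 ± 0.01% (SD, n = 3). The homeostatic median of log2(FPKM + 1) lay 5.74 ± 0.17 above the median of the 10 within a library (SD, n = 3). Both choices of genes were made with earlier results known, so this difference is given without a test.

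The median of the 10 was also lower than that of other genes of the same state, although the lists overlapped. A list of 25 further genes associated with it, all detected, had a median log2(FPKM + 1) of 7.53 ± 0.11 (SD, n = 3), against 3.86 ± 0.18 for the 10. Of these 25, 23 reached a mean of 10 FPKM and 14 a mean of 100 FPKM. The highest were Ctsd, a lysosomal protease, B2m of class I molecules and Fth1, which stores iron. The lowest were Itgax, an integrin of dendritic cells, at 5.29 ± 0.42 FPKM and Hpse, which cuts heparan sulfate, at 1.65 ± 0.16 FPKM. Trem2, the receptor that part of the state depends on, exceeded Lpl by 87.5 ± 9.42 times, and Apoe exceeded Lpl by 102.6 ± 19.97 times (SD, n = 3). Clec7a and Axl, surface receptors often used to mark these cells, were at 32.4 ± 3.24 and 15.4 ± 0.29 FPKM, near Lgals3 and Spp1. Spi1, which encodes Pu.1, was at 187 ± 4.65 FPKM.

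**Figure D3:**
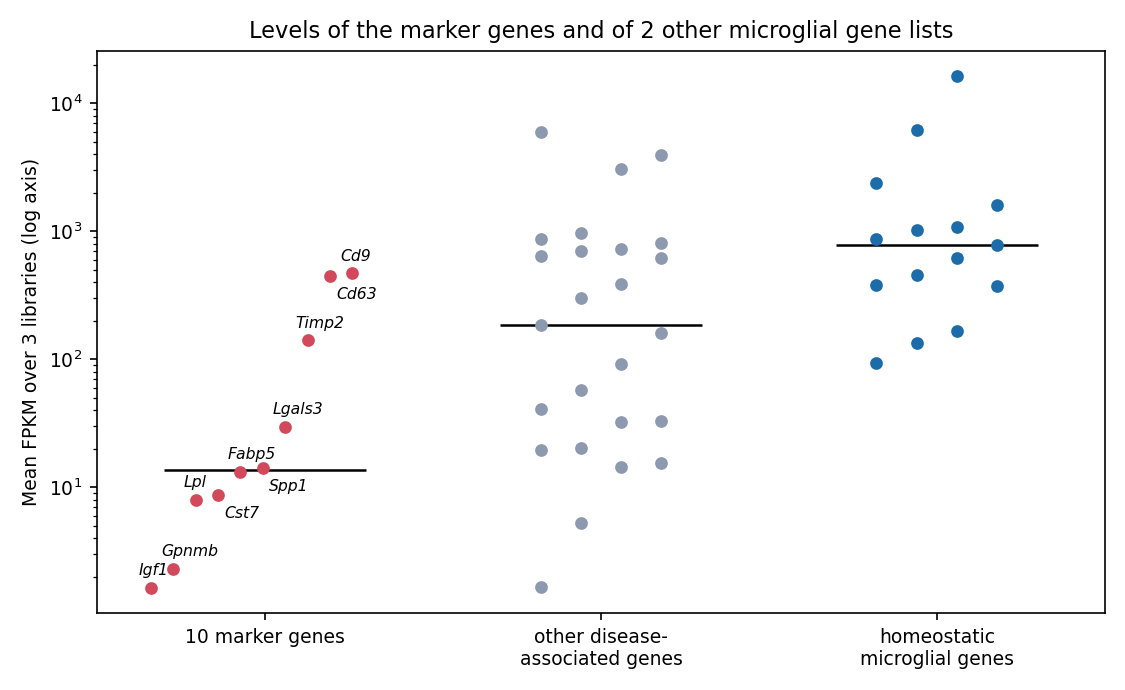
Mean FPKM over 3 libraries, on a log axis, of the 10 marker genes (red, named), 25 other genes of disease-associated microglia (grey) and 15 homeostatic genes (blue), each point 1 gene and each black bar the median of its list. The 7 lower marker genes lie below every homeostatic gene, and Cd9, Cd63 and Timp2 lie among the homeostatic genes.

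Sequences around annotated transcript starts were read from RefSeq (GRCm38.p6), in windows of 250 bases before to 50 after an annotated start. Windows were found for 8 of the 10 genes, with a pair of starts for Spp1. Lpl and Fabp5 had no entry. The windows of Cd63, Igf1, Lgals3 and Timp2, and the second of Spp1, lie inside the gene's span in GENCODE, whose outermost start is further upstream. The core GAGGAA, which Pu.1 and related factors bind, was searched on both strands because the libraries were treated with a Pu.1 inhibitor. It occurred in the windows of Cd63, Spp1 and Igf1, and in 27.4% of 11514 windows of detected genes. The pattern TGANTCA, with any base at N, was also searched on both strands and is looser than the usual AP-1 site, TGA(C/G)TCA. It occurred in the windows of Cst7 (TGATTCA), Gpnmb (TGACTCA) and Igf1 (TGAATCA), against 4.99% of windows of detected genes. Only the match in Gpnmb has the usual form, and the share given is for the looser pattern. The E-box CACGTG, bound by Mitf and its relatives, occurred in none of the 9 windows and in 9.91% of those of detected genes, and absence from a window says nothing of more distant elements.

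The windows that hold GAGGAA are printed 5′ to 3′ on the gene's strand, with that core or its reverse complement in capitals. Capitals also mark TGAATCA in Igf1 and TATAAA, searched on the gene's strand alone, in Spp1. That TATAAA began 211 bases before the start, and 4.27% of windows of detected genes held TATAAA. None of these motifs overlapped another. Cores began 244 and 59 bases before the start in Cd63, 113 bases before it in Spp1 and 60 bases before it in Igf1.
Cd63 chr10:128909095-128909394, plus strand: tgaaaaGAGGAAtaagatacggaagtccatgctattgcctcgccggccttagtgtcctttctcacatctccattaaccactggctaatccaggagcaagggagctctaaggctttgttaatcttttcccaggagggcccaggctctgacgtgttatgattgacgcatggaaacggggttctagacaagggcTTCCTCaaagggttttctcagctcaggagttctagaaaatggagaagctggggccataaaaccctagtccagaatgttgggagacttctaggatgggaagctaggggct
Spp1 chr5:104434861-104435160, plus strand: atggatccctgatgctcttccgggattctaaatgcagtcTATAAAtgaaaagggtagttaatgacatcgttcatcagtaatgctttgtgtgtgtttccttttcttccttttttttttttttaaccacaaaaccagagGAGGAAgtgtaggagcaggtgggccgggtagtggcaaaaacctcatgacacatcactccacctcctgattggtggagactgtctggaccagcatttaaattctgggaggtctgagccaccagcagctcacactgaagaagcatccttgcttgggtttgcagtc
Igf1 chr10:87860861-87861160, plus strand: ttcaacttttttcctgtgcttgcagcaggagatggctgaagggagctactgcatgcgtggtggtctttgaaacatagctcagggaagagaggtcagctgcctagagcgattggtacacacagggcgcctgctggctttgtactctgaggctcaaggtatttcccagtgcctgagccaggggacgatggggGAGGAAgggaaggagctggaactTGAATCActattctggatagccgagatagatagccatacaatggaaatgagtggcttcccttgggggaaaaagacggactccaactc
Cd9 had none of the 4 motifs, and its window is shown as one of the CG-rich ones, with each CG pair in capitals.
Cd9 chr6:125494711-125495010, minus strand: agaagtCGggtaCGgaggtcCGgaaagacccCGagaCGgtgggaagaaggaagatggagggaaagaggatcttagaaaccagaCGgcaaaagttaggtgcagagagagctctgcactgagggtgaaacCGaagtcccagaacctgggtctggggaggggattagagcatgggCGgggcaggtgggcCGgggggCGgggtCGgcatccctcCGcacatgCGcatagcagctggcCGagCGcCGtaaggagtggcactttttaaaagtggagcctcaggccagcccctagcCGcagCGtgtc
It held 18 CG pairs and Timp2 25, with observed over expected CG ratios of 0.69 and 0.72. Only these 2 genes met the usual limits of a CG-rich promoter, a ratio of at least 0.6 and 50% GC, which 65.5% of windows of detected genes met. The window of Cd63, at an internal start held by 1 of its 6 annotated transcripts, had 6 CG pairs at a ratio of 0.33. Lgals3 held 18 at 0.56, Gpnmb 9 at 0.59, Igf1 6 at 0.31 and Cst7 5 at 0.24.

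Counts differed between libraries past an adjusted p of 0.05 for 2 of the 10 genes, Fabp5 and Cd63. Libraries held 17180404, 15710750 and 16356125 estimated counts. Homogeneity of each gene's 3 counts, tested by chi-square and adjusted by Benjamini-Hochberg over 13246 genes, was rejected for 2 of the 10 at 0.05, against 41.4% of all genes tested. The share called is thus no higher among the 10 than in the background. At an unadjusted p under 0.05 the number was 5. The called genes were Fabp5, with an adjusted p of 0.000542, and Cd63, with an adjusted p of 0.000657. Cst7 had an adjusted p of 0.0543, Lgals3 0.0727 and Cd9 0.0941, and for Lpl, Gpnmb, Spp1, Igf1 and Timp2 it lay between 0.222 and 0.634. Fabp5 was highest in replicate 2 and the coefficient of variation of its CPM was 25.9%, where counting error alone gives 8.32%. For Timp2 these values were 1.01 and 1.14%, and for Cd9 2.10 and 1.19%. Timp2 and Spp1 were the genes below their counting error, and the other 8 were above it.

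Over all genes, the deviation of a library varied with transcript length. In replicate 2 the 364 genes of 600 to 800 nt had a median CPM 7.32% above the geometric mean of the libraries, and the 1156 genes over 6000 nt one 4.17% below it (-4.17%). In replicate 3 the same medians were -4.49% and 3.55%. Cd63, at 618 nt, followed this course, with 5.33% in replicate 2 and -3.22% in replicate 3. Fabp5, at 672 nt, departed further, with 29.3% and -23.6%, and Cst7, at 705 nt, had 18.0% and -20.6%. With library sizes that follow transcript length, 2 of the 10 were called, against 36% of all genes. Fabp5 was called again, with an adjusted p of 0.0131, Cd63 was not, with an adjusted p of 0.417, and Cd9 was, with an adjusted p of 0.00662. Without replicate 2 neither Fabp5 nor Cd63 was called, with adjusted p of 0.0995 and 0.716, and without replicate 3 Fabp5 had an adjusted p of 0.0914.

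**Figure D4:**
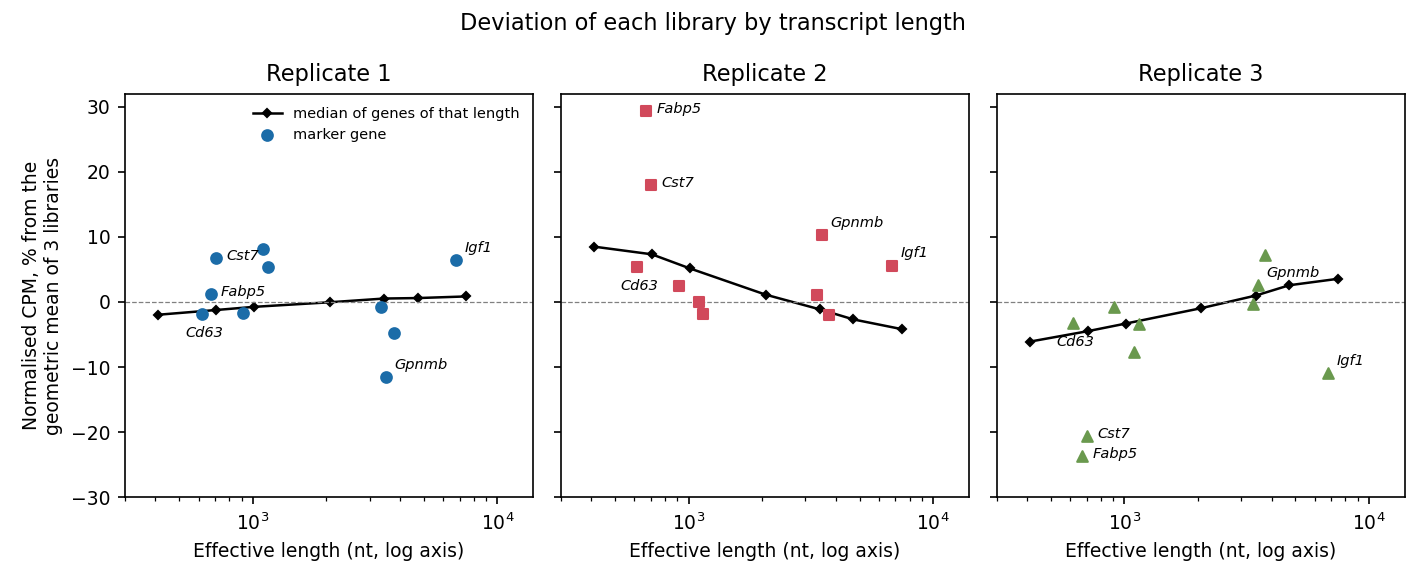
Deviation of TMM-normalised CPM from the geometric mean of the 3 libraries, in percent, against effective length on a log axis, for the 10 marker genes (coloured points) and the median of all genes in 7 length classes (black line), 1 panel per replicate. The medians of short genes are raised in replicate 2 and lowered in replicate 3, and Fabp5, at 29.3% and -23.6%, lies beyond that line.

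Genes of other cells that can make these markers were present throughout. The 12 oligodendrocyte genes, cells that express Cd9 and Cd63, summed to 372, 392 and 324 FPKM in replicates 1, 2 and 3. The 11 neutrophil genes summed to 14191, 15674 and 14201 FPKM, the 9 monocyte genes, of cells with much Lgals3, to 717, 792 and 714 FPKM, and the 11 genes of border-associated macrophages to 400.0, 420.2 and 375 FPKM. All 4 sums were highest in replicate 2, as was the summed FPKM of all genes (536963, 560743 and 529085). Each list also held genes that were highest in another replicate, such as Cnp, Ngp, Vcan and Mrc1. As a share of counts the border macrophage genes were highest in replicate 1, at 0.142, 0.140 and 0.135%. The sums of the 9 choroid plexus and ependymal genes, at 6268, 6571 and 7154 FPKM, and of the 12 mural and fibroblast genes, at 301.7, 301.8 and 327 FPKM, were highest in replicate 3. So was the largest gene of each list, Ttr at 5327, 5617 and 6126 FPKM and Rgs5 at 118, 102 and 133 FPKM. Some genes of each list were highest in replicate 2 instead, such as Folr1, Aqp1, Vtn and Dcn. All genes of the oligodendrocyte, neutrophil, monocyte and border macrophage lists were detected and none was at 0 counts. Of the 12 mural and fibroblast genes 9 were detected. The highest neutrophil gene, S100a8, averaged 8800 ± 567 FPKM, above P2ry12 at 1608 ± 7.79 FPKM. Its effective length was 112 nt, against 2057 nt for P2ry12. In TMM-normalised CPM, which is not divided by length, S100a8 was the lower, at 987 against 3308 CPM. The 12 astrocyte genes summed to 410.2, 437 and 379 FPKM, while 9 of the 12 neuronal genes were not detected and Nefl had 0 counts. The part of these cells in the levels of the 10 genes was not tested.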

How the data were processed

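The 3 libraries form 1 group by their labels. Total RNA was column-purified, per the labels' protocols. The authors deposited estimated counts per gene, not normalised between libraries, and FPKM per gene. GRCm38 and mm10, and the tools RSEM, DESeq2 and STAR 2.7.9a, are named by the submitters' processing notes; settings, annotation and strandedness are not given in the sources used here. All counts of the 10 genes were whole, so none shows a read divided between similar genes, although 4.07% of all values were not whole. There were 0 columns of other samples.

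The 10 genes and the 24 gene lists were chosen with earlier results of these data known, and the list of cytotoxic lymphocyte genes was added after the levels were seen. Genes named beside the 10 came from 10 fixed genes, which were Mir137 and genes of microglial identity and of the Trem2 pathway. Of these, Cx3cr1, Csf1r and Tyrobp are not described. The others were partners and relatives of each of the 10, and genes among the 3 highest and the lowest of other lists. Clec7a, Axl, Itgax, Prf1, Il2rb, Ctsw, Mitf and its relatives were named after their values were seen. A gene was detected where all 3 libraries reached 1 FPKM, and list medians used log2(FPKM + 1), a pseudocount of 1. Counts were rounded, filtered by the default of edgeR 4.0.16 (R 4.3.3), which left 13246 genes, and scaled by TMM. Homogeneity of the 3 counts was tested by chi-square with Benjamini-Hochberg adjustment, compares libraries and not conditions, and was checked on simulated counts. Library sizes following transcript length came from a lowess trend over genes with a mean of at least 50 counts, chosen after the data were seen. Depth limits a count of 0 to 3 counts. Coordinates are 1-based, from GENCODE M21 of GRCm38; the untranslated region used was the longest annotated, and promoters and the miRNA are from RefSeq, GRCm38.p6.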

Additional observations from a re-analysis of the deposited data

How the results depend on the processing

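All 10 genes were detected without any 1 replicate, and 5 reached 10 FPKM throughout. The median log2 level of the 10 was 3.86, and it was 4.52 in TMM-normalised CPM, 4.70 in TPM (FPKM rescaled to equal sums) and 3.77 with a pseudocount of 0.1. It ran from 3.78 to 3.96 when each replicate was left out. The homeostatic median stayed 5.65 to 5.83 log2 units above that of the 10 under the same alternatives. The share of counts was 0.127 to 0.129% when each replicate was left out. The number of the 10 whose counts differed between libraries was 2 with total counts, with DESeq2 size factors and without a filter, and 0 to 3 when each replicate was left out: 3 without replicate 1, when Cst7 had an adjusted p of 0.0282 by chi-square, 0 without replicate 2 and 1 without replicate 3. Over all genes it ran from 2498 to 3780 with each replicate left out, against 5485. Such tests have fewer samples. No paired analysis was possible because the labels give 1 group. Depth limits Cst7, Gpnmb, Fabp5 and Igf1 most, with 78 to 203 counts per library.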
